A study of Drosophila melanogaster with 6 samples.

Results

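The region described here is a stretch of 850 kb near the distal end of the X chromosome of Drosophila melanogaster, X:2600001-3450000 in the Release 5 coordinates of the files, which holds 3 much-studied genes: white (w, locus tag CG2759), Notch (N, CG3936) and diminutive (dm, CG10798), the fly Myc gene. It comprises every 10 kb window that lies wholly between these positions, 337 of the 55900 windows in the files. Of these, 334 had reads in at least 1 library and were tested. Windows start every 2.5 kb and share reads with their neighbours, so the region holds 85 windows that do not overlap. The files carry no gene annotation. The w windows were taken as the 4 that cover 2.69 Mb, the N windows as the 20 that overlap 3.03 to 3.07 Mb, and the dm windows as the 4 that cover 3.27 Mb, the approximate places of the genes. These spans reach from 2680001 to 2697500 for w, from 3020001 to 3077500 for N and from 3260001 to 3277500 for dm.

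The cells were Kc, a female line derived from late embryonic stage embryos, with the genotype given as se/e. All cells were untreated apart from a pulse of the thymidine analogue BrdU (50 µg/ml for 1 hour), after which they were fixed and sorted by DNA content into early, middle and late S phase (Early S, Mid S and Late S). DNA that had taken up BrdU was recovered with an antibody and sequenced, with 2 libraries per fraction of 1384200 to 2936097 reads. Whether the replicates were grown as separate cultures is not said in the labels, and the p-values reflect only how far these libraries differ, possibly for technical reasons. A single line was studied, and its sorted fractions average over many cells.

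Each part of the genome is copied once in S phase, at a time that is characteristic of the cell type. Origins in open, transcribed chromatin tend to fire early, silent chromatin tends to be copied late, and the stretches between are copied as forks move from one to the other. The white gene encodes a subunit of an ABC transporter that brings pigment precursors into the cells of the eye. Notch encodes the receptor of a signalling pathway through which neighbouring cells choose different fates. Myc is a transcription factor of the basic helix-loop-helix family that drives ribosome production, growth and endoreplication. In the Release 6 gene table, 19 genes lie between w and N, all protein coding, among them rst, which encodes an adhesion protein of the immunoglobulin family. Between N and the gene listed there as Myc lie 14 genes, of which 12 are protein coding, among them the glue gene Sgs4, the small glue genes ng1 to ng4, and dnc, which encodes a cAMP phosphodiesterase. Release 5 positions of these other genes were not used here, so no values are given for them.

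The 3 genes fell in 3 different settings: w had most label in Late S, N had most in Early S, and dm had most in Early S and least in Late S of the 3. Values below are means over a gene's windows in RPKM, reads per kilobase of window scaled to the depth of the library, with the SD over n = 2 libraries. Differences are on the log2 scale after adding 0.0341 RPKM. Windows are called where the Benjamini-Hochberg adjusted p of limma, over all 53434 tested windows, was below 0.05. After ±, genes and pairs of genes have the SE from both fractions' SDs, while single windows have the SE of limma.

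**Figure D1:**
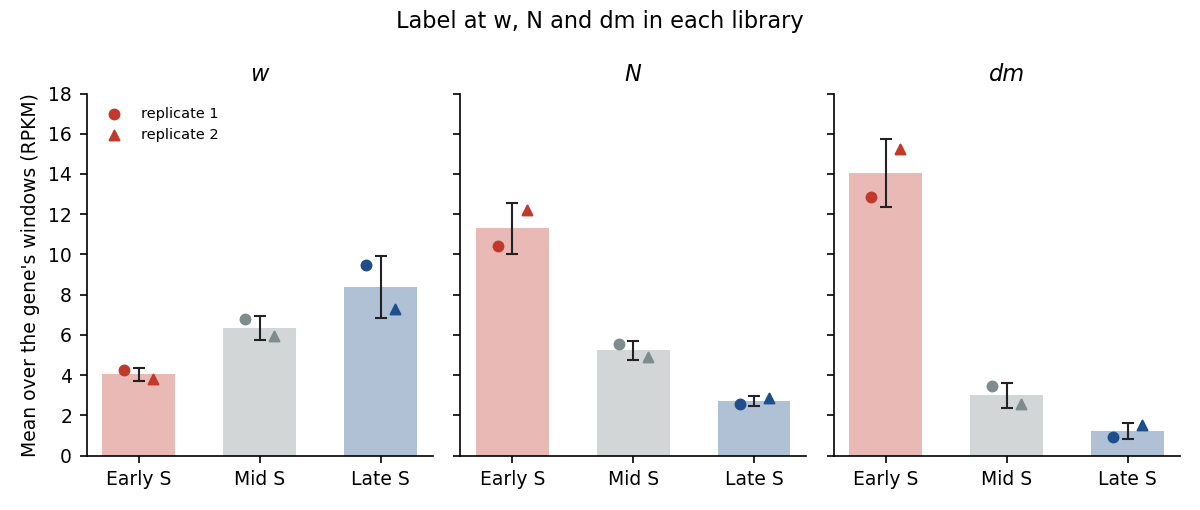
Mean RPKM over the windows of w (4), N (20) and dm (4) in each fraction, with bars for the mean of both libraries, error bars for the SD (n = 2), circles for replicate 1 and triangles for replicate 2. Bars climb towards Late S at w and fall towards Late S at N and dm, with means at dm of 14.0, 3.01 and 1.23 RPKM.

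At w the label was lowest in Early S and highest in Late S. In Early S its windows averaged 4.27 and 3.82 RPKM, in Mid S 6.79 and 5.94 RPKM, and in Late S 9.47 and 7.30 RPKM. The fractions did not overlap, and replicate 1 was the higher library in each of them. The difference of Early S minus Late S was -1.04 ± 0.202 (SE from both fractions' SDs), so Early S was 2.06-fold lower, and all 4 windows were called, with adjusted p from 9.37e-05 to 0.00211 in limma. Over all tested windows 44.2% were called in that direction. Early S was also below Mid S, by a difference of -0.65 ± 0.126, with all 4 windows called (adjusted p from 0.00729 to 0.0210 in limma) against 43.5% of all windows. That call rests on the scaling and on single libraries: no w window was called with libraries centred on their medians or quantile normalized, or without Early S replicate 2 or Mid S replicate 1, and 1 was called without Mid S replicate 2, with mean differences of -0.34, 0.06, -0.57, -0.56 and -0.75. Mid S minus Late S was -0.39 ± 0.209, with 1 window of 4 called (26.9% of all windows). Without single libraries it ran from -0.57 (without Late S replicate 2, 3 of the 4 called) to -0.20 (without Late S replicate 1, none called). Within these windows the Early S minus Late S value was -0.72 in the first, starting at 2680001, and -1.03, -1.23 and -1.18 in the next ones.

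Notch lay in a stretch with most label in Early S. Its windows averaged 10.4 and 12.2 RPKM in Early S, 5.57 and 4.92 RPKM in Mid S, and 2.54 and 2.88 RPKM in Late S. The fractions did not overlap at the level of these means. Early S minus Late S was 2.06 ± 0.144, a 4.16-fold excess of Early S, and all 20 windows were called with adjusted p of at most 3.21e-05 (limma), against 37.6% of all windows. Between these windows the value ran from 1.65 to 2.39. Early S exceeded Mid S by 1.08 ± 0.151, with all 20 windows called (adjusted p of at most 0.00833 in limma) against 20.5% of all windows. Of these 20, 19 were called without Early S replicate 1, 13 without Early S replicate 2 and 13 without Mid S replicate 2. Mid S exceeded Late S by 0.97 ± 0.123, again with 20 of 20 called, against 38.7% of all windows. With the other scalings that number was 18 (centred) and 13 (quantile). It was 14 without Mid S replicate 1, 17 without Mid S replicate 2, 17 without Late S replicate 1, and 19 without either Early S library.

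The dm windows were still more unequal between fractions. They averaged 12.8 and 15.3 RPKM in Early S, 3.44 and 2.57 RPKM in Mid S, and 0.942 and 1.52 RPKM in Late S. The fractions were far apart, and each Late S window still rested on 15 to 23 reads, where a window with none would allow up to 3. Early S minus Late S was 3.52 ± 0.355, an 11.4-fold excess of Early S, with all 4 windows called and adjusted p of at most 1.18e-07 (limma), against 37.6% of all windows. Early S exceeded Mid S by 2.22 ± 0.243, or 4.66-fold, with all 4 windows called (adjusted p of at most 3.64e-05 in limma), against 20.5% of all windows. Mid S exceeded Late S by 1.29 ± 0.395, with all 4 called and adjusted p of at most 0.00797 (limma), against 38.7% of all windows. That last number fell to 2 of 4 without Mid S replicate 1 and to 3 of 4 without Late S replicate 1, with differences of 1.08 and 0.96. Of the summed RPKM of the 3 fractions' means at a gene, Early S made up 21.5% at w, 58.7% at N and 76.8% at dm. Late S made up 44.6%, 14.1% and 6.73%. Libraries are scaled to the same depth, so each fraction makes up 33.3% over all tested windows. The percentages are therefore not shares of the DNA labelled at a gene. The summed RPKM was alike at the 3 genes, at 18.8, 19.3 and 18.3.

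The genes were then compared with each other, which a call at one and not at another does not do. For each library, the log2 value of one gene was subtracted from that of the other, and the mean of Early S minus the mean of Late S was set against the 90 ways of assigning the libraries to fractions (exact two-sided permutation test, smallest possible p 0.0222, 3 pairs adjusted together). The dm minus w values were 1.59 and 1.99 in Early S, -0.97 and -1.20 in Mid S, then -3.29 and -2.25 in Late S. Early S stood above Mid S and Mid S above Late S, with a change of 4.56 ± 0.557 from Late S to Early S (exact permutation p = 0.0222, adjusted p 0.0333). The N minus w values were 1.25 and 1.65 in Early S, -0.29 and -0.28 in Mid S, then -1.91 and -1.38 in Late S. Their change was 3.10 ± 0.333 (exact permutation p = 0.0222, adjusted p 0.0333). The dm minus N values were 0.34 in both libraries of Early S, -0.68 and -0.92 in Mid S, then -1.38 and -0.87 in Late S. Their change was 1.46 ± 0.253 (exact permutation p = 0.0444, adjusted p 0.0444), and Mid S and Late S overlapped. Relative to N, dm was slightly higher in Early S and lower in Mid S and Late S. Without any 1 library, 30 arrangements are left, with a smallest possible p of 0.0333 (0.0667 without a Mid S library). The dm minus N value was then 1.46 without Early S replicate 1, Early S replicate 2, Mid S replicate 1 or Mid S replicate 2, 1.21 without Late S replicate 1 and 1.71 without Late S replicate 2. Of these 6 omissions, that of Late S replicate 2 kept an adjusted p below 0.05 for the 3 pairs (0.0333, exact permutation), and with the other omissions it was at or above 0.05, up to 0.133.

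Along the whole region, early stretches with N and dm were parted from each other and from the distal side by 2 dips, a deep one just proximal of w and a shallow one between N and dm. The smoothed Early S minus Late S difference (mean of 5 windows) changed sign at 4 places, 2668551, 2826896, 3114946 and 3158414. A stretch shorter than 10 kb between sign changes was joined to its neighbours, a choice made after seeing the data. Taking any 1 Early S library with any 1 Late S library moved the first place by at most 7.57 kb, the second by at most 4.37 kb, the third by at most 11.4 kb and the fourth by at most 9.34 kb. Early S replicate 1 with Late S replicate 2 gave a further change of sign near the proximal end, at 3441248.

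**Figure D2:**
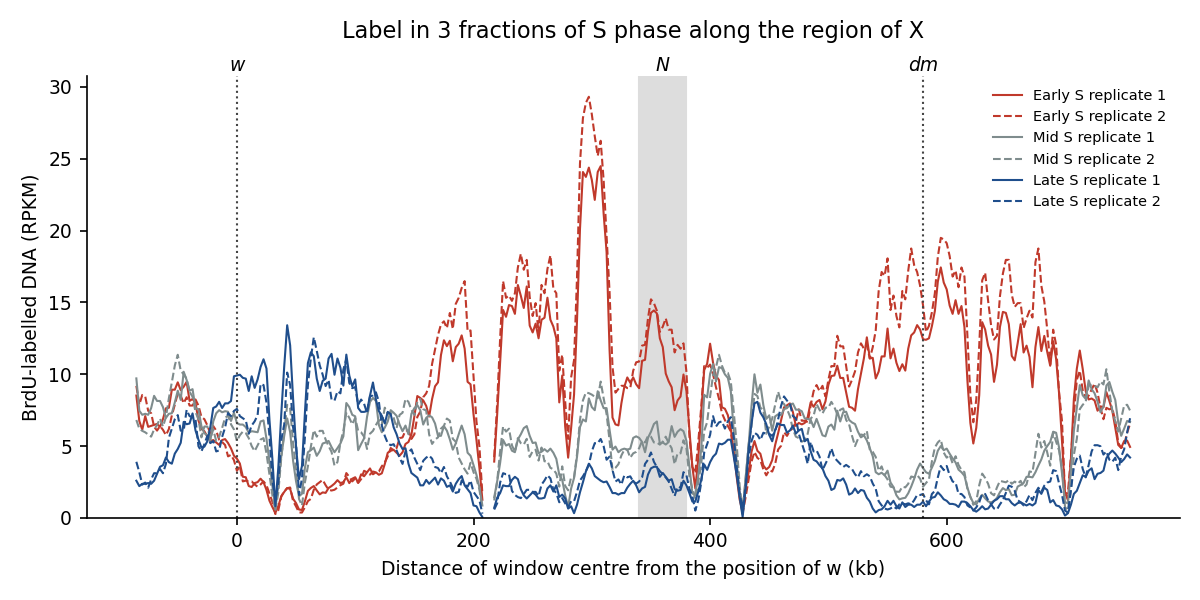
RPKM of each 10 kb window in the 6 libraries against the distance of the window centre from the position of w, with Early S in red, Mid S in grey and Late S in blue, replicate 1 as solid and replicate 2 as dashed lines. Dotted lines mark w (0 kb) and dm (580 kb) and the grey band N (340 to 380 kb); Late S lines run above the others just right of w, and Early S lines run above the others to the left of and across N and on both sides of dm.

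The distal stretch, 2600001 to 2668551, was shared between Early S and Mid S. Its 26 tested windows averaged 7.38 and 7.39 RPKM in Early S, 7.75 and 7.47 RPKM in Mid S, and 4.37 and 4.81 RPKM in Late S. Early S and Mid S were close, and Late S lay below both in every pairing of libraries. No window was called between Early S and Mid S in either direction. Genome-wide, that comparison called 20.5% of tested windows for Early S and 43.5% for Mid S. In the stretch, 19 of 26 were called higher in Early S than Late S (37.6% of all windows), with a mean difference of 0.77. This and the following stretches were cut where the Early S minus Late S difference changed sign, so the direction of their calls in that comparison follows from the cut. Comparisons with Mid S share the Early S or Late S libraries, so their calls are not independent of the cut. All counts for these stretches are a description.

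The deep dip, 2668552 to 2826896, begins just before w and extends 137 kb beyond its position. Its 63 windows averaged 2.76 and 2.74 RPKM in Early S, 5.71 and 5.37 RPKM in Mid S, and 8.53 and 7.28 RPKM in Late S. Late S exceeded Early S in 56 called windows (44.2% of all windows), Mid S exceeded Early S in 58 (43.5% of all windows) and Late S exceeded Mid S in 29 (26.9% of all windows). The lowest Early S minus Late S value of the region, -2.75 ± 0.317, lay at 2742501 to 2752500, with 1.16 and 0.740 RPKM in Early S, 3.50 and 2.47 RPKM in Mid S, and 7.32 and 5.64 RPKM in Late S (adjusted p 1.85e-06, limma). That window overlaps a stretch with few reads in every fraction, 2737501 to 2750000. Late S had its highest mean at 2750001 to 2760000, with 11.3 and 12.6 RPKM, where Early S held 2.21 and 1.95 RPKM and Mid S 4.89 and 6.11. The w windows were thus on the distal slope of the dip and not at its floor. On its proximal side the smoothed difference climbed by 2.82 over 50 kb, the largest of the 4 sign changes, while on the w side it fell by 1.85 over the same length.

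The stretch with N, 2826897 to 3114946, covered 288 kb. Its 112 tested windows averaged 10.8 and 12.4 RPKM in Early S, 5.63 and 5.46 RPKM in Mid S, and 2.45 and 3.06 RPKM in Late S. Early S was called above Late S in 102 windows (37.6% of all windows) and above Mid S in 87 (20.5%), while Mid S was called above Early S in 5 (43.5%), with a mean Early S minus Late S difference of 2.09. Notch was not at the top of its own stretch: the highest Early S mean of the region lay distal of it, at 2982501 to 2992500, with 24.4 and 29.3 RPKM in Early S, 8.32 and 8.68 RPKM in Mid S, and 3.77 and 3.68 RPKM in Late S. This window stood out in every fraction, at 1.32, 1.29 and 1.38 times the mean of the windows 10 kb to either side in Early S, Mid S and Late S, so its difference of 2.83 ± 0.155 (adjusted p 1.45e-08, limma) was less extreme than its level. In bins of 50 kb, Early S minus Late S climbed to 2.95 in the bin from 2950001 and was 1.99 and 1.69 in the 2 bins that hold N.

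The shallow dip, 3114947 to 3158414, lay between N and dm. Its 18 windows averaged 4.54 and 3.72 RPKM in Early S, 6.54 and 6.42 RPKM in Mid S, and 5.58 and 5.54 RPKM in Late S. Mid S was the highest and Early S the lowest in all pairings of libraries. Mid S was called above Early S in 11 windows (43.5% of all windows) and Late S above Early S in 10 (44.2%), while none was called between Mid S and Late S. Genome-wide, that last comparison called 38.7% of tested windows for Mid S and 26.9% for Late S. The wider run of windows with their highest mean in Mid S, 28 windows from 3090001 to 3167500, held 5.39 and 4.69 RPKM in Early S, 7.22 and 7.21 RPKM in Mid S, and 5.39 and 5.80 RPKM in Late S. Mid S was called above both other fractions in 4 windows of the region, 1.20% of those tested against 2.43% of all windows. All 4 lay on the N side of this dip, between 3095001 and 3112500. The highest Mid S mean, with 10.5 and 11.4 RPKM, lay in an overlapping window at 3092501 to 3102500 that was not called between Early S and Mid S (adjusted p 0.154, limma).

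The stretch with dm, 3158415 to 3450000, held the highest value of each of the 3 differences. Its 115 windows averaged 10.2 and 12.1 RPKM in Early S, 4.60 and 4.73 RPKM in Mid S, and 1.96 and 2.67 RPKM in Late S. The Early S levels were close to those of the stretch with N, and Mid S and Late S were lower in the dm stretch in both replicates. Early S was called above Late S in 105 windows (37.6% of all windows) and above Mid S in 72 (20.5%). The highest Early S minus Late S value of the region, 4.21 ± 0.289, lay distal of dm at 3230001 to 3240000, where Early S held 11.2 and 17.1 RPKM, Mid S 3.14 and 3.58, and Late S 0.592 and 0.867 (adjusted p 2.12e-08, limma). In the Late S libraries a single read is 0.0539 and 0.0722 RPKM, so this value rests on few Late S reads. The highest Early S minus Mid S value, 3.16 ± 0.305, lay proximal of dm at 3322501 to 3332500, where Early S held 11.4 and 13.4 RPKM, Mid S 1.07 and 1.72, and Late S 0.916 and 0.939 (adjusted p 1.25e-05, limma). There both Mid S libraries stood above both Late S libraries, with Mid S minus Late S at 0.53 ± 0.305, which was not called (adjusted p 0.138, limma). The dm windows lay between these maxima. In bins of 50 kb, Early S made up 64.6% of the summed RPKM from 3200001 and 75.1% in the bin from 3250001 that holds dm. It made up 80.7% from 3300001 and 67.2% from 3350001. At the proximal end, from 3400001, its share was 37.4%, and Mid S was highest with 7.93 and 8.29 RPKM.

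**Figure D3:**
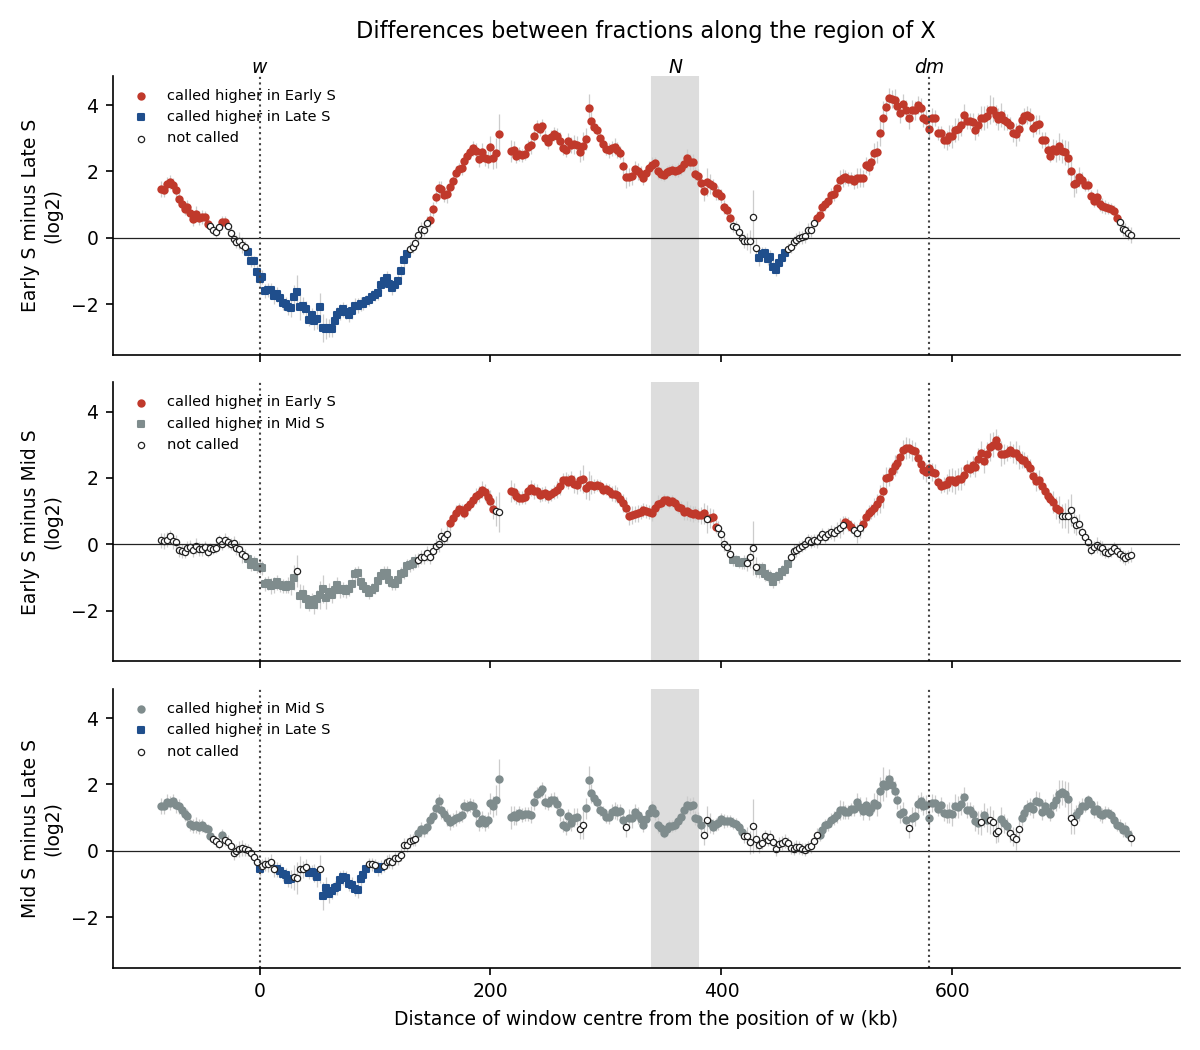
Differences between fractions on the log2 scale for each tested window (Early S minus Late S, Early S minus Mid S, Mid S minus Late S, from top to bottom) against distance from the position of w, with limma's SE as grey bars. Filled circles are windows called higher in the first fraction named, filled squares those called higher in the second and open circles those not called; the top panel dips to -2.75 beyond w and peaks at 4.21 before dm.

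The order of the fractions followed the slopes. On the proximal side of the deep dip, the fraction with the highest mean was Late S up to 2817500, Mid S in the next 13 windows (2810001 to 2850000) and Early S from 2842501. In those 13 windows Early S held 5.48 and 5.51 RPKM, Mid S 6.92 and 7.48, and Late S 4.85 and 4.53. On the w side the same passage was less regular, with runs of 1 to 4 windows changing between all 3 fractions from 2650001 to 2685000. From N to dm the highest fraction passed from Early S to Mid S and back to Early S, with no window highest in Late S. Early S had the highest mean in 204 windows of the region (61.1%, against 40.0% of the rest of X), Mid S in 75 (22.5%, against 21.2%) and Late S in 55 (16.5%, against 38.8%). The Mid S share was near that of the rest of X.

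The region as a whole held more calls in Early S than the genome. Of 334 tested windows, 226 (67.7%) were higher in Early S than Late S, against 37.6% of all windows and 42.9% of the rest of X, and 66 (19.8%) were higher in Late S, against 44.2% and 41.3%. Between Early S and Mid S, 159 windows (47.6%) were higher in Early S, against 20.5% of all windows and 23.7% of the rest of X, and 74 (22.2%) in Mid S, against 43.5% and 42.7%. Early S thus took 68.2% of the calls of that comparison in the region, a share that was 92.8% after quantile normalization, with 14 windows higher in Mid S. Without Mid S replicate 1, 48 windows were higher in Mid S. Between Mid S and Late S, 220 windows (65.9%) were higher in Mid S, against 38.7% and 42%, and 29 (8.68%) in Late S, against 26.9% and 23.5%. Without Mid S replicate 1 these counts were 133 and 14, without Mid S replicate 2 they were 136 and 13, and without Late S replicate 1 they were 176 and 9. Early S was called above both other fractions in 159 windows (47.6%, against 20.4% of all windows), Late S in 29 (8.68%, against 26.7%). Every Late S window of this kind lay between 2685001 and 2800000. Shares of all windows and of the rest of X are those of the main fit. Whether a count under another scaling or without a library changed in the region alone therefore cannot be told. Neighbouring windows share reads and the region was chosen with results of these data known, so these shares describe the region and no p is given for them.

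Against the rest of X, the median log2 value of the region differed by 0.23 and 0.37 for Early S, by -0.44 and -0.47 for Mid S, and by -1.30 and -1.01 for Late S. Early S libraries lay above the rest of X and those of Mid S and Late S below it. Early S minus Late S had a median of 1.68 over windows of the region, 0.06 over the rest of X and -0.23 over all tested windows. By this difference dm stood near the top of the chromosome: 11 of 8531 windows on the rest of X reached its value of 3.52. In the region 34 of 334 windows did, among them windows of dm itself. The value of each gene is a mean over its windows and is set here against single windows. The value of N was reached by 889 windows of the rest of X (10.4%) and that of w by 5883. For Early S minus Mid S, 38 windows of the rest of X reached the value of dm.

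**Figure D4:**
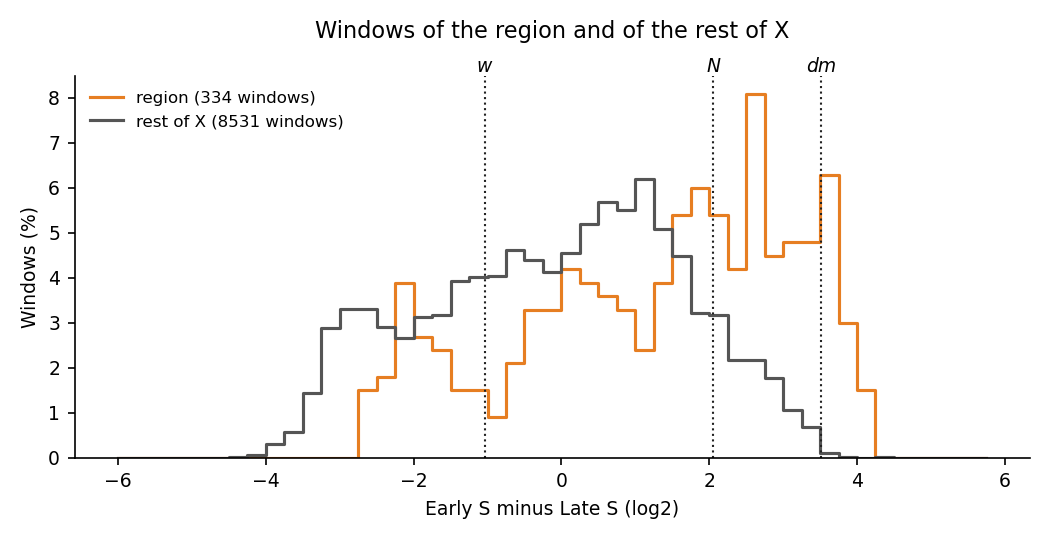
Percent of windows by Early S minus Late S difference (log2, in even steps), for the region (orange, 334 windows) and the rest of X (dark grey, 8531 windows). Dotted lines mark the mean of the windows of w, N and dm at -1.04, 2.06 and 3.52; the region has a larger share of its windows above 2, and 11 windows of the rest of X reach the value of dm.

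Windows elsewhere on X with the profile most like each gene were ranked by Euclidean distance over the 6 log2 values. For dm the nearest was X:7935001-7945000, at a distance of 0.477, with 15.2 and 16.7 RPKM in Early S, 3.14 and 2.83 RPKM in Mid S, and 1.02 and 1.88 RPKM in Late S. It was followed by X:12652501-12662500 (0.612) and X:13217501-13227500 (0.624), and the median distance from dm over the rest of X was 4.71. For N the nearest was X:1712501-1722500, at 0.261, with 10.7 and 12.1 RPKM in Early S, 5.96 and 5.30 RPKM in Mid S, and 2.59 and 2.46 RPKM in Late S. The next were X:1840001-1850000 (0.286) and X:6785001-6795000 (0.352), against a median of 2.88. For w it was X:14532501-14542500, at 0.188, with 4.60 and 3.80 RPKM in Early S, 7.10 and 6.01 RPKM in Mid S, and 8.62 and 7.44 RPKM in Late S. The next were X:9975001-9985000 (0.261) and X:4295001-4305000 (0.312), against a median of 2.18. The nearest dm windows were therefore further away than those of w and N. The same held for the median over the rest of X, at 4.71 for dm against 2.88 for N and 2.18 for w.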

How the data were processed

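Repli-seq was done on BrdU-labelled DNA of Kc cells sorted into 3 fractions of S phase, with 2 libraries each. The authors deposited 1 value per window in RPKM, per the file headers, for 55900 windows of 10 kb. The sources used here name no aligner, genome build, read filter or input correction. Sequence names are of the type used in Release 5. The 3 files with replicates combined were not used. Values in full windows were whole multiples of 1 read within 0.02 reads in 100% of cases, which gave the reads per library.

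Values were put on the log2(RPKM + 0.0341) scale, the lowest value above 0, which understates folds of weak windows. The 2466 windows with no read in any library were dropped. limma 3.58.1 in R 4.3.3 (lmFit, eBayes with trend) fitted the 3 fraction means to all 6 libraries over 53434 windows. Tests were two-sided, with 3 residual and 10.7 prior degrees of freedom. The code was also run on simulated data with independent windows and few changes. The windows here overlap and many are called, so that run checks the code only. Libraries were assigned from the sample titles. Python 3.11.15, NumPy 2.4.6, pandas 2.3.3 and matplotlib 3.10.9 did the rest. Windows named are those of the 3 genes, the highest and lowest of each fraction and difference, the 50 kb bins, the sign changes and the 3 windows most like each gene. The members and rules were chosen with earlier results of these data known. Gene names and order came from a Release 6 table, with no coordinates. Deviations of same-numbered libraries correlated at -0.031 (Early S and Mid S), 0.024 (Early S and Late S) and 0.21 (Mid S and Late S), not all above 0.1, so the numbers were not taken to pair libraries. Alternatives covered the pseudocount, a filter, 2 scalings, left-out libraries, a replicate block, the prior trend and the span of a gene.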

Additional observations from a re-analysis of the deposited data

How the results depend on the processing

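Of 297 alternative values of 22 results, 240 kept their direction and side of the threshold, or for counts stayed within 1.5 times. Early S against Late S was the steadiest: counts of 226 and 66 windows ran from 216 to 236 and from 49 to 68, and N and dm kept all windows called under every alternative tried. Of the limma differences at genes, Mid S minus Late S at N stayed the same in 8 of 15 alternatives and Early S minus Mid S at w in 9 of 15. Only w had a value that changed sign. Its Early S minus Late S was -0.67 after quantile normalization, with 3 of 4 windows called, and -1.06 over 50 kb, not called in every window, and the value relative to library medians was -0.67 after quantile normalization (exact permutation, adjusted p 0.0889). Early S minus Mid S at w turned to 0.060 after quantile normalization, was -0.34 with centred libraries and -0.77 over 50 kb, none called throughout, and ran from -0.75 to -0.56 without single libraries. Mid S minus Late S at w was called at -0.73 after quantile normalization and at -0.54 in the single nearest window. Mid S minus Late S lost its call in some windows of N (0.72 quantile, 0.80 centred) and, over 50 kb, of dm (1.20). Quantile normalization, for which no share of all windows is given, gave 14 windows with Mid S above Early S and 46 with Late S above Mid S. Without single libraries these ran from 48 to 73 and from 9 to 28, windows higher in Mid S than in Late S from 133 to 210, Early S minus Mid S at N from 0.97 to 1.20, and Mid S minus Late S from 0.88 to 1.06 at N and from 0.96 to 1.63 at dm. Over libraries, Early S minus Late S then ran from 1.31 to 1.61 for the region against the rest of X, -1.12 to -0.67 for w, 2.05 to 2.35 for N, 3.37 to 3.95 for dm, 4.04 to 5.08 for dm minus w, 1.21 to 1.71 for dm minus N and 2.83 to 3.36 for N minus w. These tests have too few arrangements to pass without a Mid S library. The w value also missed the threshold without Early S replicate 1 and Early S replicate 2 (exact permutation, p 0.0667 and 0.1), where 0.0333 was possible. Leaving out a library leaves 1 in its fraction, which limma assumes to vary like the others. With the replicate block, counts of Early S against Late S were 229 and 66, and no call named here was lost. The causes of these changes were not tested, beyond fewer libraries.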

Other observations

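Some windows of the region had few reads in every fraction. The 3 windows from 2895001 to 2910000 had no reads in the 6 libraries. Counting these, 13 windows had a summed mean under 25% of the median of the rest of X (23.3 RPKM), in 6 stretches that included 2717501 to 2730000 and 2737501 to 2750000 in the dip beside w, and 3110001 to 3122500 between N and dm. In the weakest window with reads, 3112501 to 3122500, Late S held 0.0539 and 0.650 RPKM, and no difference was detectable at this depth. The summed RPKM of the 3 fractions had a median of 18.4 in the region and 23.3 on the rest of X. What lowers it was not tested.

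The replicates differed in parts of the region. Over the region, Early S replicate 2 exceeded replicate 1 in 232 of 334 windows, with a median log2 difference of 0.14, against -0.02 over the rest of X. Late S replicate 2 exceeded replicate 1 in 213 windows, with a median of 0.18, against 0.04 over the rest of X. At dm both shifts were larger, at 0.28 in Early S and 0.68 in Late S, while at w they were -0.12 and -0.39. For Mid S the median was -0.02 over the region, -0.43 at dm and -0.21 at w.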
